A study of Drosophila melanogaster with 2 samples.

Results

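CG15269 is a gene of chromosome arm 2L of Drosophila melanogaster, and its product is the protein that was tagged and recovered here. The 3 genes described are CG15269, wwk (white walker) and stc (shuttle craft), taken by their symbols out of 13945 protein-coding genes on 6 chromosome arms, together with the stretch of DNA between wwk and CG15269. The measurement was chromatin immunoprecipitation followed by sequencing (ChIP-seq) of whole embryos aged 6 to 18 h by their source name, of pooled males and females. All embryos came from a transgenic line in which CG15269 carries GFP (eGFP in the sample descriptions) at its C-terminal end. There was 1 group, with biological replicates numbered 2 and 3, and no untagged counterpart among the samples. For the age, another field of the labels gives a different value. Per the sample descriptions the antibody was directed against GFP, whereas the antibody field names CG15269. The labels call the tagged gene an insertion. Its place, its promoter and the length of DNA it carries were not stated in those labels, so reads from inserted copies of this locus, if any, and reads from the native locus cannot be told apart.

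Zinc finger proteins read DNA through small folds that each hold a zinc ion, and arrays of them bind DNA at particular sequences. A gene of a DNA-binding protein can hold binding sites of its own product, a common arrangement among transcription factors, and such sites may lie at the promoter or in enhancers some distance away. Whether and where the tagged protein was recovered at its own gene is the question addressed here. The coding sequence of CG15269, read from the genome with the annotated exons, gives 587 residues with 7 matches to the zinc finger pattern of 2 cysteines followed by 2 histidines. The longest products of wwk (1338 residues) and stc (1106 residues) gave 0 matches to the same pattern. The stc gene codes for the relative of the human transcription factor NF-X1, which has zinc fingers of another type, and it is known for its part in the development of embryonic motor neurons.

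The 3 genes follow each other on the plus strand of assembly dm6, counted here from 1. The gene wwk (FBgn0028879) spans 15074776 to 15096915, CG15269 (FBgn0028878) spans 15109405 to 15113092, and stc (FBgn0001978) spans 15113480 to 15118069. Each of them has 1 annotated transcription start site (TSS). Between the end of wwk and the start of CG15269 lie 12489 bp (15096916 to 15109404) in which the annotation holds 0 genes, while CG15269 and stc are only 387 bp apart.

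Apart from 1 peak of replicate 3 before stc (described below), the peaks of this locus lay in the stretch between wwk and CG15269. The authors' list of peaks that passed a threshold on the irreproducible discovery rate (IDR), a measure of agreement between replicates, held 7 summits there. It held 0 in wwk, 0 in CG15269 and 0 in stc. A further list, called on both replicates together, is named the joint list here. The 7 peaks are numbered here in the order of their positions, from the wwk side to the CG15269 side. DNA is shown for the 4 that hold GAGACGGC or TATTCGAA, the rarer of the words of 8 bases shared by at least 3 of the 7. Each sequence is the plus strand of dm6 from 100 bp before to 100 bp after the summit, read from the RefSeq copy of the genome. Capitals mark GAGACGGC, TATTCGAA and AAAACAAA or their reverse complements.
Peak 2, chr2L:15101876-15102076: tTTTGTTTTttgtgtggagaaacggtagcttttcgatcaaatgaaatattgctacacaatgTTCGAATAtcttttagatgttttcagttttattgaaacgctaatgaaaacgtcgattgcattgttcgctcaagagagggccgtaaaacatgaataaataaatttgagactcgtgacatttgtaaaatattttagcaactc
Peak 5, the strongest, chr2L:15105636-15105836: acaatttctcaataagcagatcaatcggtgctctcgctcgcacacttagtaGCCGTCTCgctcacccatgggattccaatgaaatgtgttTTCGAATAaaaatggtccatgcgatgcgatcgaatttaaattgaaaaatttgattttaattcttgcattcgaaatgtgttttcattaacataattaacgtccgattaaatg
Peak 6, chr2L:15106234-15106434: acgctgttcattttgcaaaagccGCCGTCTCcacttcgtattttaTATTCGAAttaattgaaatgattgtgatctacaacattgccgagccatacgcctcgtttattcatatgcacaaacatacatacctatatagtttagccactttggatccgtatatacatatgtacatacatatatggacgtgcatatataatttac
Peak 7, the nearest to CG15269, chr2L:15107369-15107569: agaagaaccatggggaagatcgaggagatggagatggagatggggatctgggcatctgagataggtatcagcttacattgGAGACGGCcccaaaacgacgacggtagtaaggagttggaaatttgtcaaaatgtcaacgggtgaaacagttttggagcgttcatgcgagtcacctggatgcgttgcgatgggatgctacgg

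The strongest peak of the stretch was peak 5 (15105514 to 15105972), with its summit at 15105736, 3669 bp before the TSS of CG15269. Its signal was 803.4 in the IDR list, which gives for every peak a signal set by the authors, in a unit they do not state. That placed it at rank 921 of 7029, and 86.9% of the IDR peaks were weaker. In the list of replicate 2 it had a signal of 543 and ranked 528, and in that of replicate 3 it had a signal of 271.5 and ranked 1741, out of 30000 peaks in each list. Signals are comparable only within a list. Its summits in the replicates lay 5 bp apart. In each of the 4 deposited lists this was the strongest peak of the stretch. These lists are not independent, since peak 5 has the same signal and rank in the IDR list and in the joint list.

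Peak 6 followed, 598 bp closer to CG15269, with a signal of 428.3 (rank 2188) and its summit 3071 bp before the TSS. It ranked 1691 in replicate 2 and 2960 in replicate 3. Peak 7, with a signal of 311.6 (rank 3193), was the closest to CG15269, and its summit still lay 1936 bp before the TSS. It ranked 2261 in replicate 2 and 5195 in replicate 3, and the replicates placed its summit 94 bp apart, the widest distance among the 7.

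The remaining peaks lay farther from CG15269. Peak 4 had a signal of 305.8 (rank 3265) at 4296 bp before the TSS, and peak 3 a signal of 188.4 (rank 5683) at 6043 bp. Peak 2 had a signal of 289.5 (rank 3491) at 7429 bp. Peak 1 had a signal of 306.2 (rank 3258) at 10729 bp before CG15269, which is 1761 bp after the end of wwk. The 7 peaks thus covered the stretch unevenly, with 4 of them (peaks 4 to 7) between 1936 and 4296 bp before CG15269. Their median signal was 306, against 288 over all IDR peaks, and 6 of the 7 were above that median. Peak 3 was the weakest, and in replicate 3 it had a -log10 q-value of 2.82, against 4.10 for the other 6 peaks there. In the IDR list the 7 peaks had the same -log10 q-value of 4.20, so that only the signal ranks them.

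**Figure D1:**
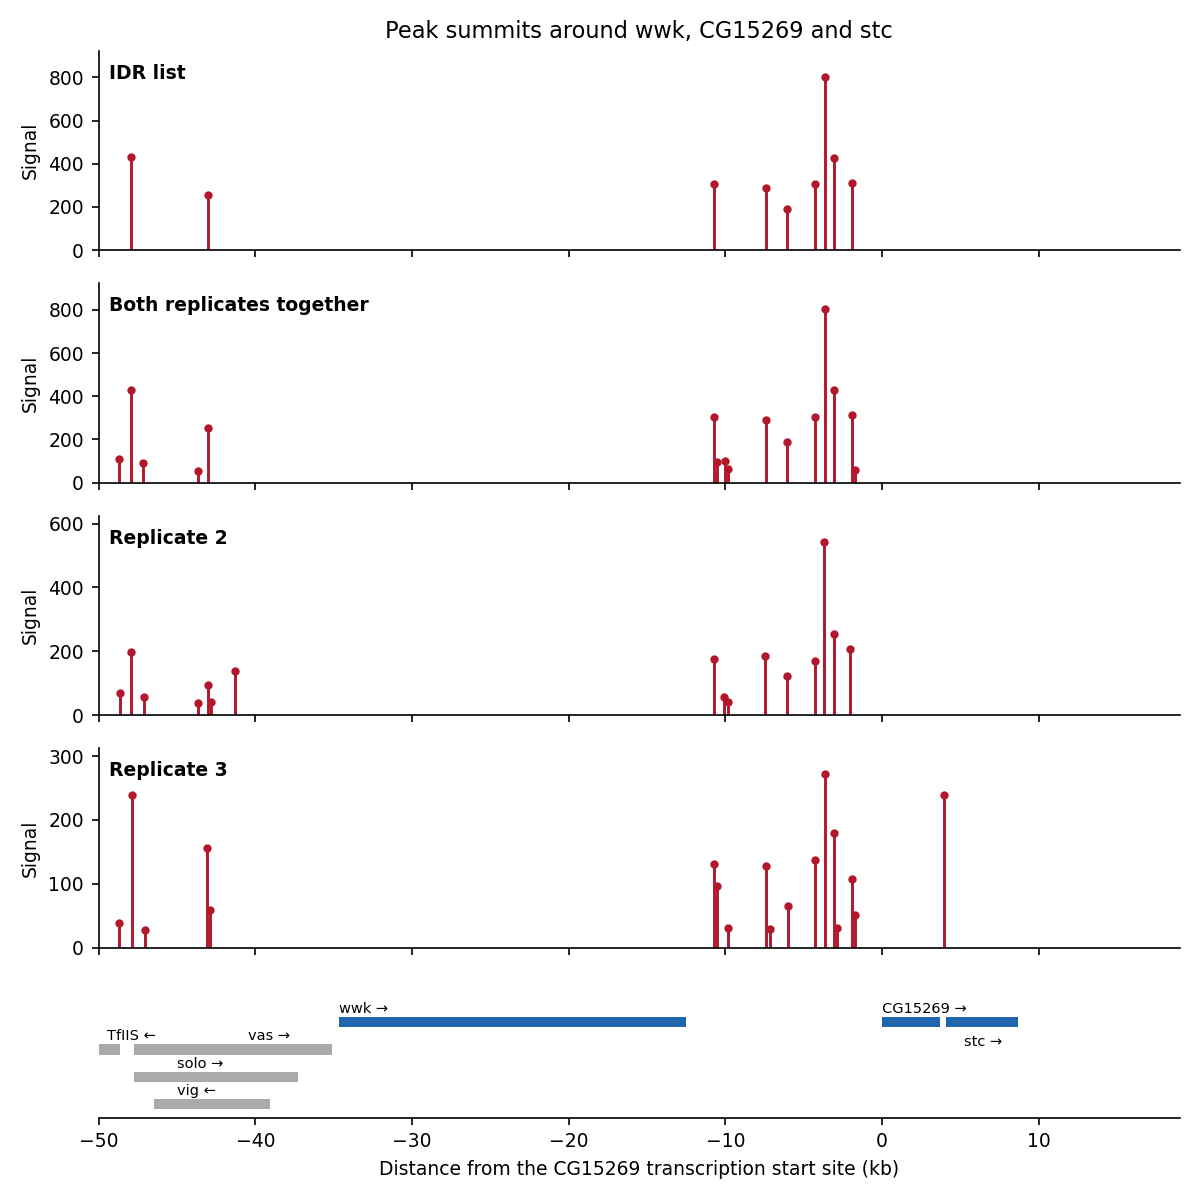
Signal of each peak (vertical lines, on the scale of its own list) against the distance of its summit from the CG15269 TSS in kb, in the IDR list, the list called on both replicates together and the lists of replicates 2 and 3, with protein-coding genes below (wwk, CG15269 and stc in blue, arrows for strand). The 7 IDR summits between the 2 genes wwk and CG15269 lie from -10.7 to -1.94 kb, and these genes hold none. The lines to the left of wwk lie in and around vas. The peak just before stc is in the list of replicate 3 alone.

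Promoters of the 3 genes held no peak in the IDR list. An IDR summit no farther than 500 bp from the TSS was found for 0 of 3, where 20.6% of all protein-coding genes did, so that 0 of 3 is near that background. The nearest IDR summit to the TSS of wwk lay at -8410 bp, inside the neighbouring gene vas, and for stc the nearest was peak 7, at -6011 bp, negative distances lying before the TSS. The count was also 0 of 3 within 200 bp (14.0% of all genes), within 1000 bp (24.4%), and with the joint list (36.3%). The rule that was to name genes with a promoter peak like that of CG15269 could not be applied, since CG15269 had none.

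The genes themselves held no summit in any list, although a replicate 3 peak with its summit before stc reached into stc (described below). The 22140 bp of wwk held 0 summits in the IDR list, 0 in the joint list and 0 in each replicate list. Among 696 protein-coding genes of 15 to 30 kb, 43.1% had no IDR summit and 22.1% had no summit of the joint list (median 4). CG15269, the gene of the tagged protein, held 0 summits in each of the 4 lists, and so did stc. Of 2363 genes of 3 to 6 kb, 69.1% had no summit of the joint list and 84.4% had no IDR summit.

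In the joint list the summits stopped on either side of the stretch. On the side of wwk, 32.3 kb without a summit separated peak 1 from the last summit in the vas region (15066366 to 15098676). On the side of CG15269 and stc, 34.9 kb without a summit followed (15107669 to 15142597). The median distance between neighbouring summits of the list was 1.25 kb, and 1.96% and 1.65% of 29994 such distances were at least as long as these.

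The stretch between wwk and CG15269 was densely occupied by IDR summits for its length, a comparison made with the IDR list alone. It held 0.560 IDR summits per kb, against 0.0460 over the intervals of 10 to 15 kb between neighbouring protein-coding genes and 0.0525 over the 6 arms. Of 310 intervals of 10 to 15 kb, 209 had no IDR summit, and 1 had as many as 7, which was this one. Among all 10424 intervals, of which 17.4% held an IDR summit, 20 had at least 7. Among the 1637 intervals of at least 5 kb, 9 had at least as many per kb, this one included. These are descriptions of 1 interval, taken up with its peaks known, and no test was made of them.

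**Figure D2:**
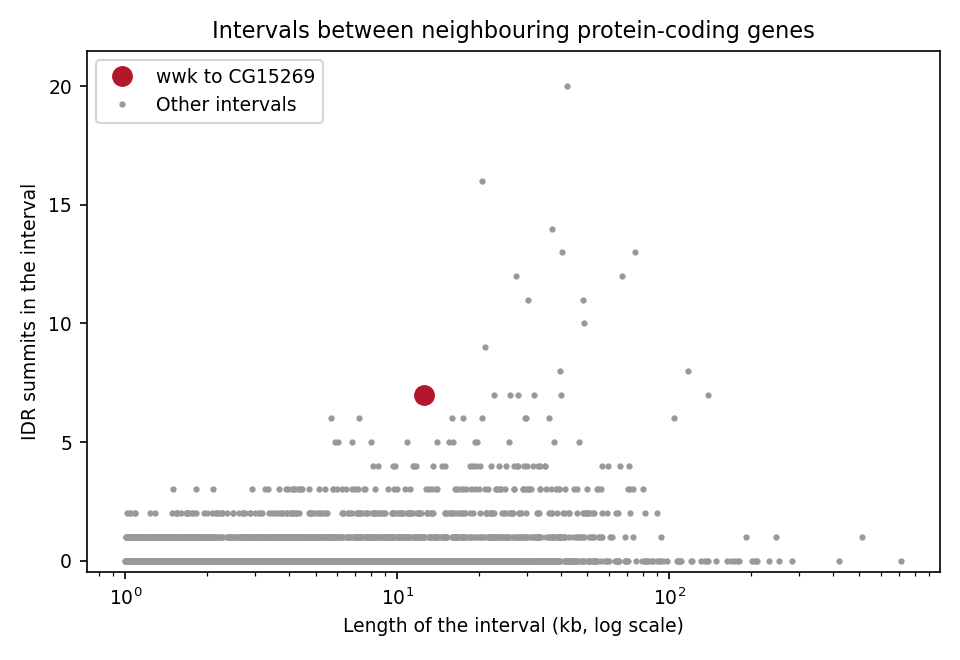
Number of IDR summits against length in kb (log scale) for each interval of at least 1 kb between neighbouring protein-coding genes. The interval between wwk and CG15269 (large point) has 7 summits in 12.5 kb, the highest count among intervals of 10 to 15 kb.

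Around peak 5 the counts depended on the list and on the window. In the 20 kb centred on peak 5 there were 7 IDR summits, against a median of 3 around all IDR summits, and 9.60% of those windows held as many. The joint list held 11 summits in the same window, close to its median of 10 (44.3% held as many). All 11 lay between wwk and CG15269, and 7 of them (63.6%) were in the IDR list, against 23.4% of the whole joint list. The window was centred on an IDR peak, which raises the first share by construction. The 4 of the 11 that were not in the IDR list had signals of 57.4 to 98.06 and ranked 11404 to 19301. They lay 200 to 922 bp from an IDR summit. The 10 kb window held 6 IDR summits, against a median of 2, and 3.39% of windows held as many. Its 7 summits of the joint list stood against a median of 6 (41.3% held as many). The 50 kb window held 7 IDR summits, against a median of 5, and 39.2% of windows held as many. It held 11 summits of the joint list, against a median of 19, and 81.2% held as many.

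Both replicates gave the 7 peaks, but not at the same rank. All 7 stood higher in the list of replicate 2 than in that of replicate 3, while 56.2% of the 6872 IDR peaks matched in both lists did. The rank in replicate 3 divided by that in replicate 2 was between 1.33 at peak 4 and 3.30 at peak 5, with a median of 1.75. Over all matched peaks the median was 1.07 and the central part, from the 10th to the 90th percentile, ran from 0.553 to 1.85. Of 42 intervals between genes with at least 5 matched IDR summits, 3 (this one included) had every summit higher in replicate 2 and 0 had every summit higher in replicate 3. The median of 1.75 was the highest of the 42, the lowest being 0.638. With 1 library per replicate, no test of this difference between the libraries is possible. The positions of the summits differed little, with a median distance between replicates of 15 bp for the 7 peaks and 24 bp for all matched peaks.

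**Figure D3:**
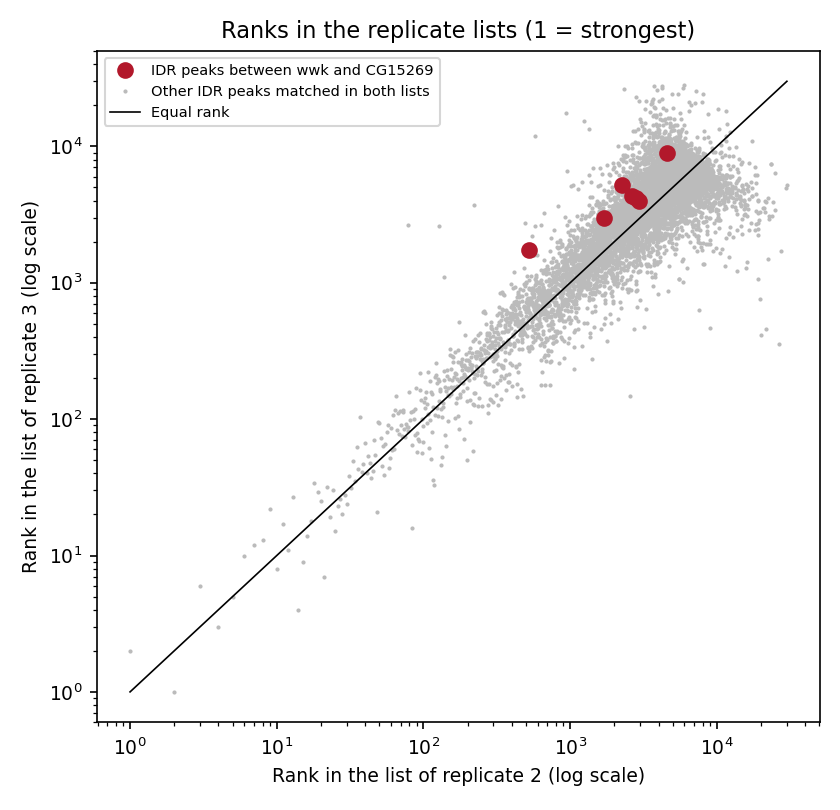
Rank in the list of replicate 3 against rank in the list of replicate 2 (both log scales, 1 is the strongest) for the 7 IDR peaks between wwk and CG15269 (large points) and the other IDR peaks found in both lists. All 7 points lie above the line of equal rank.

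Replicate 3 had 1 further peak in the locus, at stc. It spanned 15113178 to 15113597 with its summit at 15113388, which is 92 bp before the TSS of stc and 296 bp after the end of CG15269. Its signal of 238.8 ranked 2063 in the list of replicate 3, where 93.1% of the peaks were weaker, so that in this library it stood above all peaks between wwk and CG15269 except peak 5. The list of replicate 2 had no summit within 6003 bp of it, and the joint list had none within 5719 bp. With the 7029 strongest peaks of replicate 3 alone, stc would be the 1 member gene with a promoter peak (21.8% of all genes then), and with those of replicate 2 alone there would be 0 (20.8%).

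Peaks of this kind were few. Of the 2063 peaks of replicate 3 that were at least as strong, 43 (2.08%) overlapped no peak of replicate 2 or of the joint list. Among the 7029 strongest of replicate 3 there were 261 (3.71%), and among the 7029 strongest of replicate 2 there were 95 (1.35%) with no counterpart in the other lists. Of the 261, 64.8% were no farther than 500 bp from the TSS of a protein-coding gene, against 37.5% of the 7029 from which they came. The DNA at the stc peak is shown because it holds the word TATCGATA (capitals), the DRE, which is bound by Dref and BEAF-32 at many promoters of genes used in all cells.
Replicate 3 peak before stc, chr2L:15113288-15113488: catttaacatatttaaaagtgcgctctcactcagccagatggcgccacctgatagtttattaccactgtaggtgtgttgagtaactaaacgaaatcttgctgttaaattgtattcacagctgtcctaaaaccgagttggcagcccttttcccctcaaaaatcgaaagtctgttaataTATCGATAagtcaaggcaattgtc

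The DRE started 15 bp before the TSS of stc and 77 bp after the summit. It was present within 100 bp of 13 (4.98%) of the 261 summits without a counterpart. The share was 2.21% for the 7029 strongest summits of replicate 3 and 2.01% for the IDR summits. The 261 lay near a TSS more often than the 7029, as given above, and no share for promoter peaks alone was computed. The DRE was present at 0 of the 7 summits between wwk and CG15269, where 12489 bp held 0 copies.

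At 6 of the 7 summits between wwk and CG15269 the DNA was poorer in A and T than the mean of all IDR summits, and at peak 2 it was richer. Within 25 bp of the summit the A+T content was 52.9% at peak 1, 68.6% at peak 2, 58.8% at peak 3, 60.8% at peak 4, 62.7% at peak 5, 58.8% at peak 6 and 51.0% at peak 7. The mean was 59.1% ± 5.93 (SD over 7 summits), against 67.0% ± 11.2 over all 7029 IDR summits, a difference smaller than the SD of all IDR summits. The 7 summits are places in the same libraries and no biological replicates. Of all IDR summits, 46.8% were below 67.0%. Summits in intervals of at least 5 kb had 68.1% ± 11.0 (SD over 1211 summits), and the whole stretch between wwk and CG15269 had 60.6%. Of all IDR summits, 8.62% had a lower content than peak 7.

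**Figure D4:**
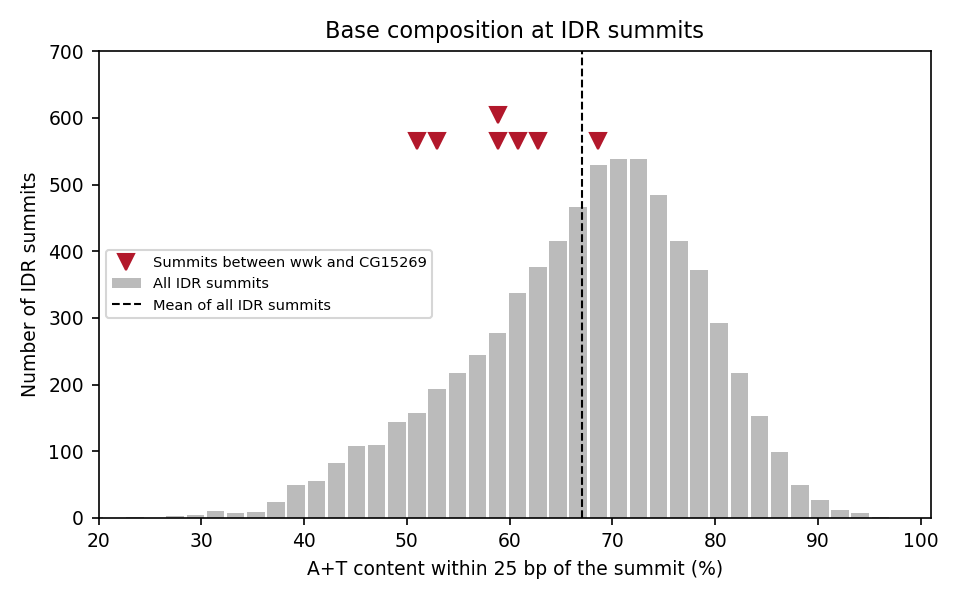
Number of IDR summits (bars) by A+T content in percent within 25 bp of the summit, with the 7 summits between wwk and CG15269 (triangles, stacked where equal) and the mean of all IDR summits (dashed line). Of the 7 triangles, 6 lie left of the mean of 67.0%.

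The 10 words of 8 bases most frequent at IDR summits, all of A and T, were looked for on both strands within 100 bp. At least 1 of them was present at 2 of the 7 summits, peaks 1 and 2, and at 54.0% of all IDR summits. The commonest, AAAAAAAA, was found at 1 of the 7 and at 16.3% of all. The M1BP word GGTCACACT was present at 0 of 7 and at 0.996% of all IDR summits. GAGAG, a core of the sites of the GAGA factor, was present at 3 of 7 (peaks 2, 4 and 5) and at 21.4% of all. It was also present within 100 bp of the replicate 3 summit before stc, as was the DRE on the other side of that summit.

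The 7 windows shared 3 words with each other, taken as those held by at least 3 of them, and so chosen from the values. GAGACGGC was present at peaks 5, 6 and 7 and at 19 of the 7029 IDR summits (0.270%), these 3 included. TATTCGAA was present at peaks 2, 5 and 6 and at 1.42% of all. AAAACAAA was present at peaks 2, 3 and 4 and at 8.79% of all. In the sequences above TATTCGAA begins 10 bp before the summit of peak 5, 39 bp before that of peak 2 and 55 bp before that of peak 6. GAGACGGC begins 20 bp before the summit of peak 7, 49 bp before that of peak 5 and 77 bp before that of peak 6. The stretch held no further copy of either word, and it held 9 copies of AAAACAAA, of which 3 lay within 100 bp of an IDR summit. Since the words were chosen for being near at least 3 of the summits, these counts are no sign of a concentration there. Peaks 5 and 6 hold both of the rarer words. A match of letters is a description and no measured site.

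Promoter peaks beyond the 3 genes were about as frequent as over all genes. Of the 10 nearest protein-coding genes before wwk and the 10 after stc, 4 of 20 had a TSS with an IDR summit inside 500 bp, near the background of 20.6%. Before wwk these were vas, the germ line RNA helicase gene, and solo, a gene of meiotic chromatid cohesion, which share a TSS and a peak at -173 bp (signal 430.4). After stc they were dao (signal 259.9, at -158 bp) and Cul3, the gene of a ubiquitin ligase scaffold (signal 196.2, at -222 bp). Su(H), the gene of the DNA-binding factor of the Notch pathway, had no IDR summit within 500 bp. The 3 promoter peaks stood higher in replicate 3 than in replicate 2, unlike the 7 peaks between wwk and CG15269. Over all matched IDR peaks 56.2% stood higher in replicate 2, so 3 peaks the other way are not unusual. The share among promoter peaks alone was not computed. The vas and solo peak ranked 2405 in replicate 2 and 2062 in replicate 3, that of dao 6368 and 3427, and that of Cul3 9830 and 4277.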

How the data were processed

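The authors called peaks on replicate 2, on replicate 3 and jointly, with a control alignment that was not analysed here, and derived the IDR-thresholded list from those 3 lists, per the text files deposited with each sample. Coordinates are dm6, per the labels. Which caller was used, and the IDR threshold, were not given in the sources used here. Each deposited signal, and each deposited -log10 q-value, is the authors' own. Depth is unknown, as the files hold no read totals, and no interval can be given for a signal.

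Summit positions are the peak start plus the deposited summit offset. Genes and TSSs came from Ensembl release 115 and bases from the RefSeq genome, with equal coordinates. Peaks of 2 lists were matched when they shared at least 1 bp, taking the nearest summit. No test was made, since there is 1 group. Intervals between genes were taken after merging overlapping protein-coding genes. The counting steps were tested on simulated data. The genes, lists and words were chosen with earlier results of these data known. The genes named are the 3 members, the 10 nearest on each side and those with a promoter peak most like that of CG15269, a rule that could not be applied. Alternatives were other windows, lists and thresholds and each replicate alone. Calculations used Python 3.11.15, numpy 2.4.6 and pandas 2.3.3, and figures matplotlib 3.10.9.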

Additional observations from a re-analysis of the deposited data

How the results depend on the processing

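The 7 IDR summits from 1000 bp before wwk to 1000 bp after stc, all spaces between the genes included, were 7 to 8 with the 7029 strongest peaks of 1 replicate alone. Without replicate 2 the count of 8 includes the summit before stc and a further summit near peak 1 (15098874, rank 5849 in replicate 3). It lacks peak 3, which ranked 8955 in replicate 3. The count was 6 in the stronger part of the IDR list (its top ranks), 7 by any overlap and 11 in the list called on both replicates together. The number of member genes with a promoter peak was 0 to 1 with 1 replicate alone, the 1 being stc without replicate 2, and 0 under the other alternatives. The strongest peak between wwk and CG15269 ranked 528 to 1741 with 1 replicate alone, and its summit lay at -3674 to -3669 bp from the CG15269 TSS. The 11 peaks called on both replicates together within 20 kb were 9 to 13 with 1 replicate alone, 7 within 10 kb, 11 within 50 kb and 7 in the IDR list. The A+T content of 62.7% at that summit was 60.8 to 62.7% with 1 replicate alone, 64.4% within 50 bp and 63.7% within 100 bp. The looser list holds more peaks and the smaller window less DNA by construction, while the cause of the other changes was not tested. With 2 libraries and no read totals, a peak absent from a list does not show that no protein was there.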
